A study of Drosophila melanogaster with 8 samples.

Results

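In *Drosophila*, a symbol made of the letters CG and a number is the placeholder that the genome annotation gave to a predicted gene, and it is kept until somebody describes the gene and names it. Such genes are part of every fly transcriptome, although for many of them little is known beyond the gene model. The genes described here are those with such a symbol whose RNA was higher in male pupal terminalia at 28 hr than at 24 hr after puparium formation (APF). They were selected on the measured levels by 4 criteria: a current symbol of that form, a mean level at 28 hr APF of at least 2 CPM (counts in every 1000000 counts of a library), a mean at 28 hr APF of at least 2 times the mean at 24 hr APF, and a lowest 28 hr library above the highest 24 hr library. Of the 16845 identifiers in the count table, 6000 had such a symbol, 2837 of these reached 2 CPM at 28 hr APF, and 90 met every criterion. The comparison of the time points chose these 90 genes, so their levels and fold differences are a description and no test is given for them.

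The genital and anal parts of the male fly, together called terminalia, form from the genital disc, and in the pupa this epithelium is reshaped into the claspers, lobes and phallic structures of the adult. The pupal epithelium also lays down the apical matrix and the cuticle that will cover these structures, and pulses of the steroid hormone ecdysone time much of this program through a cascade of transcription factors. Each library came from the terminalia of 1 male pupa (genotype *yw;+;+*, kept at 25 °C), and poly-A RNA was sequenced for 4 pupae at 24 hr APF and 4 at 28 hr APF. No strain or treatment differed between the groups, and all 8 pupae carried the same genotype. The values are raw read counts over the merged exons of a gene, and total counts ranged from 24534188 to 35795240 a library. A level is given as CPM or, where genes are compared with each other, as rpkm, in which CPM is divided by the exon length in kilobases.

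Known genes of the terminalia were looked up, which shows their presence but cannot check the tissue label, since no other tissue was compared. All 15 listed genes of this kind, such as *Abd-B*, *Poxn*, *cad* and *dsx*, were measured in every library. In a fit of all genes (edgeR, quasi-likelihood, p-values adjusted by Benjamini-Hochberg, threshold 0.05), 3692 of 11232 tested genes, 32.9%, differed between the time points, with 15.6% higher and 17.3% lower at 28 hr APF. The 15 terminalia genes were higher in 8 cases and lower in none. Listed genes of neurons were higher in 9 of 12 tested and lower in none, and their summed level was 226 to 247 CPM at 24 hr APF against 263 to 344 CPM at 28 hr APF. Muscle genes were higher in 10 and lower in 4 of 16, with summed levels of 2187 to 2749 CPM and 2517 to 2654 CPM. Hemocyte genes were higher in none and lower in 1 of 8 tested, with summed levels of 589.4 to 665.2 CPM and 494.3 to 534.5 CPM. Fat body genes were higher in none and lower in 1 of 7 tested, with summed levels of 40.31 to 165.4 CPM and 35.55 to 79.73 CPM. The highest of these, 165.4 CPM, was in replicate 3 at 24 hr APF. Of the 10 accessory gland and duct genes in the table, 7 stayed under 0.5 CPM in every library, as did 7 of 21 testis and germ line genes and 6 of 9 gut genes, of which *Jon65Aiii* had no count. The testis and germ line genes still summed to 117.2 to 135.4 CPM at 24 hr APF and 67.36 to 98.35 CPM at 28 hr APF. Of 5 tested, 1 was higher and 2 were lower at 28 hr APF. Accessory gland and duct genes summed to 44.75 to 61.29 CPM and 44.34 to 47.15 CPM. For gut genes the sums were 26.18 to 33.88 CPM and 24.31 to 29.23 CPM. The part of these cell types in the levels described below was not tested, and in whole tissue a larger number of expressing cells and more RNA in each cell cannot be told apart.

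The 90 genes differed by 2.003 to 12.4-fold between the mean levels of the time points, with a median of 2.91-fold. A total of 29 genes lay under 2.5-fold, 42 reached 3-fold, 18 reached 4-fold and 3 passed 10-fold. The time points were well separated in most of them, since the lowest 28 hr library was at least 1.5 times the highest 24 hr library in 79 genes and at least 2 times in 42. For comparison, 461 of the 2837 CG genes with at least 2 CPM, 16.2%, had 28 hr libraries that were all above the 24 hr libraries. Only 2 CG genes at that level, CG13403 and CG44836, had a mean fold of at least 2 and overlapping time points. All 90 genes were past the threshold of the fit of all genes, an outcome that their choice favored, beside 15.6% of all tested genes. Their fitted log2 fold changes had a median of 1.57, while that of all tested genes was 0.00 and that of the 3670 tested CG genes was 0.03.

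**Figure D1:**
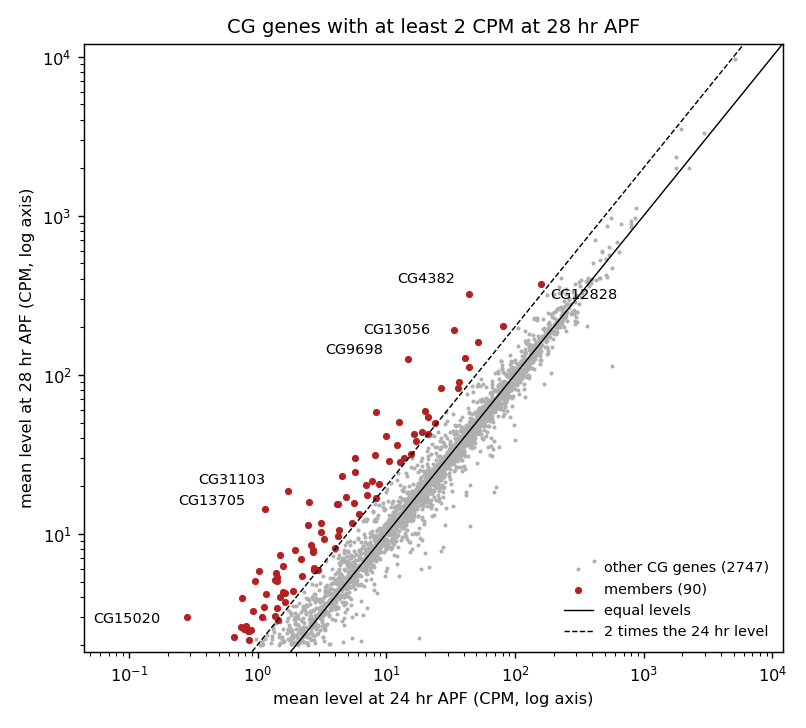
Mean CPM at 24 hr APF (x axis, log) and at 28 hr APF (y axis, log) of each CG gene with at least 2 CPM at 28 hr APF. The solid line marks equal levels and the dashed line 2 times the 24 hr level; the 90 selected genes (red) lie above the dashed line because they were chosen so, and most of the other 2747 genes (grey) lie close to the solid line.

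The edges of the selection are gradual. Just inside the fold criterion were CG10311, CG15249 and CG34106, at 2.003, 2.003 and 2.01-fold, and just outside were CG3349, CG3823 and CG2841, at 1.997, 1.97 and 1.97-fold. By level, CG11068, CG10680 and CG9389 had the lowest means inside, at 2.13, 2.25 and 2.43 CPM, while CG13376, CG43272 and CG17681, at 1.84, 1.81 and 1.78 CPM, were left out. Genes with any other symbol, called named genes below, met the same criteria in 111 of 6120 cases at that level, or 1.81%, against 3.17% of the CG genes. This group includes entries with placeholder symbols of another form, such as *CR31427* and *asRNA:CR45131*, and 102 of the 111 are protein-coding. The mirrored criteria, for a fall of the same size, were met by 44 CG genes.

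Measured per length of exon, the 90 genes were mostly of low to moderate abundance, with a median of 2.07 rpkm at 24 hr APF and 7.68 rpkm at 28 hr APF. Levels at 28 hr APF ran from 0.646 rpkm to 826 rpkm, and 83 of the genes reached 1 rpkm, 35 reached 10 rpkm and 13 reached 50 rpkm. At 24 hr APF 27 genes were under 1 rpkm, and 20 of these were at 1 rpkm or more at 28 hr APF. The other 7 (CG18304, CG8086, CG14082, CG7166, CG32333, CG13272 and CG34106) stayed under 1 rpkm at both time points. In the other 2747 CG genes with at least 2 CPM, the median at 28 hr APF was 13.7 rpkm. Together the 90 genes took between 780 and 1111 CPM of a 24 hr library and between 2803 and 3255 CPM of a 28 hr library. Counts behind a single value ranged from 4 to 4927 at 24 hr APF, with a median of 100.5, and from 45 to 12459 at 28 hr APF, with a median of 339.

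The largest fold was that of CG13705 (FBgn0035582; arm 3L from 4896864 to 4898470 on the BDGP6 assembly, used for all positions given here). In replicates 1 to 4 it measured 0.976, 1.51, 0.939 and 1.17 CPM at 24 hr APF and 8.59, 11.8, 18.8 and 18 CPM at 28 hr APF, a 12.4-fold difference of the means. The 28 hr libraries fell into a lower pair, replicates 1 and 2, and a higher pair, and even the lowest was 5.70 times the highest 24 hr library. The named genes on both sides of it, *Dnah3* and *hoka*, had too few counts to be tested.

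CG31103 (FBgn0051103; 3R from 25219318 to 25221444) measured 1.57, 2.45, 2.31 and 0.615 CPM at 24 hr APF and 16, 17.8, 19.1 and 21 CPM at 28 hr APF, or 10.6-fold. The 28 hr libraries were close to each other, whereas replicate 4 at 24 hr APF lay well below its 3 counterparts. Its neighbor *Alg9*, 144 bases away, had a log2 fold change of -0.25 (SE 0.05, adjusted p = 0.0029, edgeR).

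CG15020 (FBgn0035543; 3L from 4421662 to 4426621) was barely detected at 24 hr APF, with 7, 4, 17 and 5 reads in replicates 1 to 4, and had 93, 95, 89 and 89 reads at 28 hr APF. As levels these were 0.220, 0.163, 0.614 and 0.140 CPM, then 2.96, 3.34, 2.97 and 2.63 CPM, a 10.5-fold difference. Replicate 3 at 24 hr APF held about as many reads as the other 3 libraries together. The fitted log2 fold change was 3.43 (SE 0.38) with this library and 4.08 without it.

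CG9698 (FBgn0039784; 3R from 30514777 to 30516980) combined a large fold with a high level. It measured 14.1, 15.9, 18.0 and 10.8 CPM at 24 hr APF and 107, 132, 125 and 137 CPM at 28 hr APF, 8.52-fold. The spread within each time point was small against the distance between them. Per length this was 8.39 ± 1.74 rpkm and 71.5 ± 7.38 rpkm (SD, n = 4 each).

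CG4382 (FBgn0032132; 2L from 9598880 to 9600872) was the third most abundant of the 90 genes at 28 hr APF. It measured 42.9, 51.5, 47.0 and 34.9 CPM at 24 hr APF and 266, 367, 346 and 306 CPM at 28 hr APF, 7.29-fold, and every 28 hr library stood far above every 24 hr library. The next named gene, *gcm2*, which encodes a transcription factor of the glial cells missing family, lies 7689 bases away and was higher at 28 hr APF as well, from 0.361 to 1.79 CPM, with a log2 fold change of 2.38 (SE 0.44, adjusted p = 0.0021, edgeR).

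CG13081 (FBgn0032804; 2L from 19540607 to 19541540) had the most even 24 hr libraries of these genes, at 8.15, 8.40, 8.49 and 8.24 CPM. At 28 hr APF it measured 44.7, 58.4, 52.5 and 78.7 CPM, 7.04-fold, with replicate 4 the highest. CG13082, the next gene before it, went from 46.6 to 84.7 CPM, 1.82-fold, and was not among the 90. The gene after it, *ref(2)P*, had a log2 fold change of 0.13 (adjusted p = 0.11, edgeR).

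CG15414 (FBgn0031542; 2L from 3480755 to 3491071) was uneven within both time points. It measured 2.45, 2.69, 3.76 and 1.12 CPM at 24 hr APF and 17.8, 11.5, 22.9 and 11.5 CPM at 28 hr APF, 6.35-fold. Replicates 1 and 3 were high and replicates 2 and 4 low at 28 hr APF, yet the time points did not overlap.

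CG5612, CG2663 and CG33110 were low genes with folds above 5. CG5612, inside an intron of *Tusp* on 3R, measured 0.755, 1.47, 1.19 and 0.670 CPM at 24 hr APF and 5.41, 5.20, 5.57 and 7.15 CPM at 28 hr APF. CG2663, also on 3R, measured 0.755, 0.897, 1.55 and 0.642 CPM and then 4.36, 6.39, 2.77 and 6.74 CPM. The 28 hr libraries of CG2663 differed by 2.44 times, the most of these 3 genes. CG33110, on 3R, measured 0.567, 0.734, 1.19 and 0.559 CPM and then 4.33, 3.69, 4.87 and 2.90 CPM. In all 3 genes replicate 4 was the lowest 24 hr library.

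**Figure D2:**
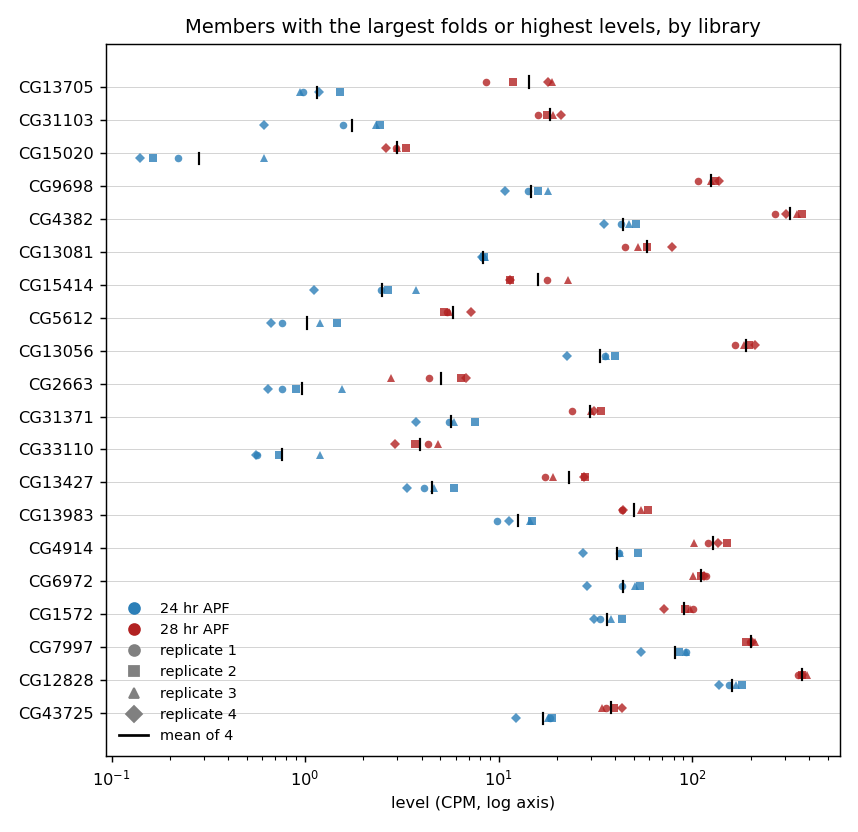
CPM (x axis, log) in each of the 8 libraries for the 20 genes that were among the 12 largest folds or the 12 highest rpkm at 28 hr APF, ordered by fold. Symbols mark the replicate number, blue is 24 hr APF, red is 28 hr APF and the bar is the mean of 4; no gene has overlapping colors, and replicate 4 (diamond) is often the lowest blue point.

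The most abundant of the 90 genes was CG12828 (FBgn0033145; 2R from 7149174 to 7149677), a short gene of 97 codons. It measured 155, 181, 168 and 137 CPM at 24 hr APF and 353, 368, 392 and 368 CPM at 28 hr APF, or 358 ± 41.8 and 826 ± 36.1 rpkm (SD, n = 4 each). The 28 hr libraries lay within a narrow band. The BDGP6 gene model shares 116 of its exon bases, 25.9%, with *Spn43Aa* on the opposite strand, a member of the serpin family of protease inhibitors. *Spn43Aa* itself went from 2133 to 5021 CPM, 2.35-fold against 2.31-fold for CG12828. Reads of *Spn43Aa* spread evenly along its exons would place 450 CPM on the shared bases, which is 122% of the level of CG12828. Whether strand was used in the counting is not given in the sources used here, so the reads of the pair cannot be told apart.

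CG13056 (FBgn0040794; 3L from 16333313 to 16333782) was second in abundance and shares no exon bases with another gene. It has 99 codons and measured 35.2, 39.9, 35.7 and 22.6 CPM at 24 hr APF and 166, 197, 186 and 212 CPM at 28 hr APF, 5.70-fold. Per length this was 83.0 ± 18.7 and 473 ± 48.0 rpkm (SD, n = 4 each). *retinin*, a gene of the corneal lens that lies 523 bases away, had no count in any 24 hr library and at most 0.133 CPM at 28 hr APF.

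CG7997 (FBgn0034117; 2R from 16341251 to 16344182) measured 93.0, 85.1, 92.5 and 54.5 CPM at 24 hr APF and 199, 189, 212 and 203 CPM at 28 hr APF, 2.47-fold. At 24 hr APF 3 libraries lay close together, as did all 28 hr libraries, and replicate 4 at 24 hr APF was low. It is flanked closely by *Hmgs*, an enzyme of the mevalonate pathway 8 bases away, and by *Nup62*, a nuclear pore gene 194 bases away. Neither was higher at 28 hr APF, with log2 fold changes of -0.04 (adjusted p = 0.53) and -0.39 (adjusted p = 5.2e-05, edgeR).

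CG43725 (FBgn0263971; 2L from 11075513 to 11075962) has only 64 codons. It measured 18.5, 18.8, 18.0 and 12.2 CPM at 24 hr APF and 35.7, 39.5, 34.3 and 43.4 CPM at 28 hr APF, 2.27-fold, with replicate 4 low at the first time point and high at the second. The neuropeptide gene *AstC*, which encodes allatostatin C, lies 202 bases away. It measured 0.409, 0.285, 0.578 and 0.112 CPM and then 1.65, 1.51, 1.47 and 3.40 CPM, with a log2 fold change of 2.58 (SE 0.45, adjusted p = 0.0015, edgeR). In both genes the lowest 24 hr library and the highest 28 hr library were the replicates numbered 4.

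CG4914 (FBgn0036436; 3L from 14674538 to 14678147) lies inside an intron of *ome* on the opposite strand, and RefSeq lists SP39, a serine protease name, among its synonyms. It measured 41.7, 52.3, 42.6 and 27.1 CPM at 24 hr APF and 120, 151, 102 and 136 CPM at 28 hr APF, 3.11-fold. Its level of 76.8 rpkm at 28 hr APF was 6.93 times that of its host, and the host had a log2 fold change of 0.01 (adjusted p = 0.92, edgeR).

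Among the other abundant genes, CG6972 (3R) measured 43.2, 53.5, 50.5 and 28.6 CPM at 24 hr APF and 117, 111, 101 and 115 CPM at 28 hr APF. CG1572 (X) measured 33.5, 43.3, 38.2 and 30.9 CPM and then 101, 91.2, 97.3 and 71.1 CPM. For CG13983 (2L), inside an intron of the receptor tyrosine kinase gene *Ddr*, the libraries gave 9.79, 14.9, 14.6 and 11.4 CPM and then 43.3, 59.3, 54.5 and 43.9 CPM. In each of these 3 genes the 28 hr libraries lay above every 24 hr library, closest in CG1572, where the lowest was 1.64 times the highest 24 hr library. CG13427 (2R), of 105 codons, measured 4.12, 5.91, 4.62 and 3.38 CPM and then 17.4, 28, 19 and 27.6 CPM, so that replicates 2 and 4 stood above replicates 1 and 3 at 28 hr APF.

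All 90 genes have a protein-coding model, and their coding lengths ran from 61 codons in CG34446 to 1901 codons in CG18304, with a median of 405 codons. Short genes were well represented, with 25 of 90 (27.8%) under 200 codons, beside 20.6% of the other CG genes with at least 2 CPM and 11.8% of the 102 protein-coding named genes that met the same criteria. The 25 short genes had a median of 10.8 rpkm at 28 hr APF and the 65 longer ones 4.51 rpkm, and the short ones made up 6 of the 12 most abundant. The level criterion was set in CPM, and at the same CPM a shorter gene has a higher rpkm. The selection itself therefore favored higher rpkm in short genes, and this difference is no result about them. CG12828, CG13056, CG43725, CG34446, CG30154, CG32811 and CG2816 had fewer than 100 codons. CG14535, CG18304, CG8086, CG10132, CG17839, CG32333, CG43333 and CG31036 had at least 1000. A single annotated transcript was present in 47 genes and a single exon in 8. The genes were spread over the arms, with 20 on 2L, 15 on 2R, 20 on 3L, 21 on 3R and 14 on X.

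RefSeq gives a few of the 90 genes a synonym that names a protein family. Besides CG4914, serine protease names were listed for CG8170 (SP54), which went from 15.6 ± 2.34 to 31.6 ± 1.87 CPM (SD, n = 4 each), and for CG14218 (SPH211, a name used for protease homologs), which went from 0.740 ± 0.128 to 2.60 ± 0.335 CPM. Serine proteases cut other proteins, many of them outside the cell. CG5065 carries the synonym FAR1, a name for fatty acyl-CoA reductases, which make the long-chain alcohols of waxes, and measured 12.2, 15.3, 12.7 and 8.35 CPM and then 30.4, 37.4, 39.4 and 37.0 CPM. CG14535 carries the kinesin name KIF26 and measured 2.49, 1.75, 1.62 and 2.01 CPM and then 5.57, 7.52, 8.40 and 9.96 CPM. CG7737 is listed as PAOX, a polyamine oxidase name, and went from 3.13 to 10.2 CPM, and CG31668 as dSLC5A12, after a human sodium-coupled transporter, and went from 0.891 to 2.49 CPM. In none of these genes did the time points overlap, as the selection required.

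The libraries of a time point did not contribute equally. In 64 of the 90 genes (71.1%), replicate 4 was the lowest 24 hr library, and in 51 it was at least 25% below the mean of the other 3. Across the 90 genes its median ratio to the mean of the time point was 0.767, while the other 24 hr libraries had ratios of 0.984, 1.09 and 1.09. The other 2747 CG genes had a median ratio of 0.989 in this library, where 33.7% of them were lowest. The 111 named genes selected by the same criteria had 0.83, and the 44 CG genes that fell had 1.12. At 28 hr APF replicate 1 was lowest in 38 genes and highest in 3, with a median ratio of 0.927 over the 90 genes and 1.15 over the 44 that fell. Of the other 2747 CG genes, 21% were lowest and 25.1% highest in that library, with a median ratio of 1.005. In replicate 4 at 24 hr APF and replicate 1 at 28 hr APF, the genes selected as higher at 28 hr APF were low and those selected as lower were high. The cause of these library differences was not tested. Without replicate 4 at 24 hr APF, 87 genes met the criteria, and without replicate 1 at 28 hr APF, 94 did.

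**Figure D3:**
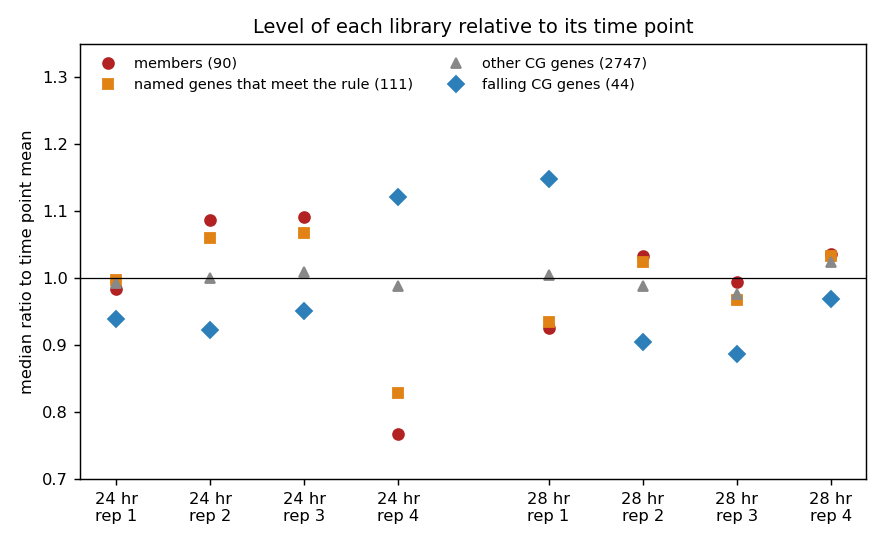
Median, over the genes of a group, of the ratio of the CPM in a library to the mean CPM of its time point (y axis), for the 8 libraries (x axis). Red circles are the 90 selected genes, orange squares the 111 named genes that met the same criteria, grey triangles the other 2747 CG genes and blue diamonds the 44 CG genes that fell; replicate 4 at 24 hr APF stands at 0.767 for the selected genes and at 1.12 for those that fell.

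Within a time point, the selected genes varied with a median coefficient of variation of 20.5% at 24 hr APF and 13.9% at 28 hr APF, and that of the other CG genes was 6.82% and 7.47% at higher levels. The highest 28 hr library was more than 2 times the lowest in 6 genes, CG13705, CG2663, CG8086, CG11951, CG31445 and CG12699, and under 1.2 times the lowest in 14. Replicate 3 was the highest 28 hr library in 4 of the 6.

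CG11951 and CG31445 are neighbors on 3R and shared this pattern closely. CG11951 (29235322 to 29238723) measured 26.2, 31.6, 26.6 and 21.5 CPM at 24 hr APF and 59.1, 67.5, 142 and 62.4 CPM at 28 hr APF. CG31445 (29240580 to 29244827) measured 51.7, 60.6, 51.6 and 42.8 CPM and then 112, 133, 279 and 120 CPM. Between them lies *CR31427*, which measured 19, 22.4, 18.9 and 15.8 CPM and then 41.1, 48.0, 104 and 44.1 CPM. In these 3 genes replicate 3 at 28 hr APF was 2.26, 2.29 and 2.34 times the mean of the other 28 hr libraries. The next gene along the arm, *SP1029*, lies 133 bases from CG31445. It was at 3017, 3216, 3374 and 3053 CPM in the 28 hr libraries, with replicate 3 at 1.09 times the mean of the others. Without replicate 3, the fold was 2.38 rather than 3.13 for CG11951 and 2.35 rather than 3.11 for CG31445, so that 1 pupa added to a difference that was also present in the other 3. *SP1029* had a log2 fold change of 1.41 (SE 0.09, adjusted p = 3.4e-06, edgeR).

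**Figure D4:**
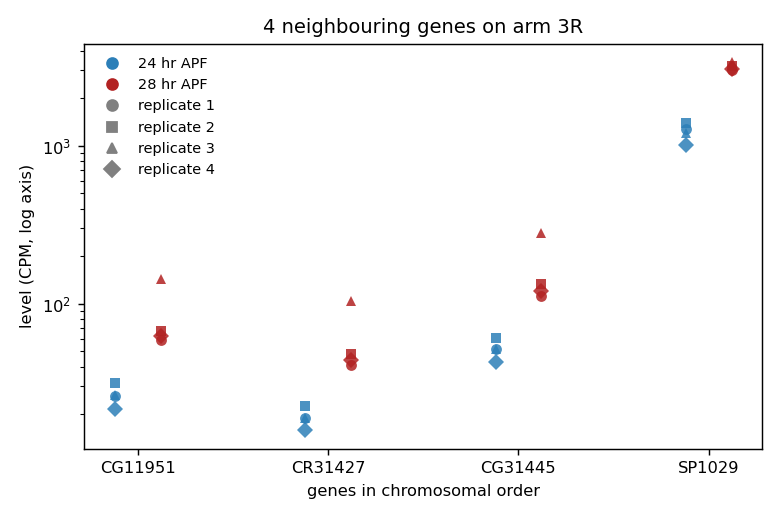
CPM (y axis, log) of 4 neighboring genes on arm 3R in chromosomal order, with blue for 24 hr APF, red for 28 hr APF and a symbol for each replicate. Replicate 3 at 28 hr APF (red triangle) stands apart from the other 28 hr libraries in CG11951, *CR31427* and CG31445, at 142, 104 and 279 CPM, and not in *SP1029*.

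CG31371 and CG9698 lie in a run of genes on 3R that includes *PH4alphaNE1*, *PH4alphaSG1* and *PH4alphaNE2*, whose names are those of prolyl 4-hydroxylase alpha subunits, enzymes that hydroxylate proline in proteins such as collagen. CG31371 (30501124 to 30503506) measured 5.57, 7.5, 5.85 and 3.74 CPM at 24 hr APF and 24, 33.6, 30 and 31.2 CPM at 28 hr APF, 5.24-fold. *PH4alphaNE1*, 797 bases before it, measured 8.84, 9.25, 7.33 and 7.24 CPM and then 17.8, 17.2, 22.8 and 19.4 CPM, with a log2 fold change of 1.28 (SE 0.12, adjusted p = 3.3e-05, edgeR). The 5 genes between CG31371 and CG9698 were nearly silent, with at most 0.562 CPM in any library. *jdp*, which encodes a J-domain protein, lies 78 bases from CG9698 on the opposite strand. It measured 10.3, 11.5, 11.1 and 8.60 CPM and then 31.3, 38.3, 35.3 and 40.0 CPM, with a log2 fold change of 1.84 (SE 0.10, adjusted p = 2.0e-06, edgeR). The higher genes thus sat at both ends of the run, with genes of low level between them.

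A few of the 90 genes were next to each other. CG30195 and CG34446 are 212 bases apart on the same strand of 2R and share the older annotation CG13513 among their synonyms. CG30195 measured 3.62, 4.89, 4.59 and 3.94 CPM and then 10.1, 10.9, 10.3 and 10.8 CPM, and CG34446 measured 0.850, 1.43, 1.26 and 0.754 CPM and then 2.29, 3.27, 2.90 and 3.46 CPM. CG34445, the next gene, went from 4.56 to 7.06 CPM, 1.55-fold. CG6972 overlaps CG13842, which measured 2.08, 2.61, 2.96 and 1.28 CPM and then 6.14, 7.03, 3.63 and 5.03 CPM, and also the neuropeptide gene *CCAP*, which encodes crustacean cardioactive peptide. *CCAP* went from 0.914 to 2.06 CPM, with a log2 fold change of 1.22 (SE 0.29, adjusted p = 0.0088, edgeR). CG6972 was at 111 CPM at 28 hr APF, and at even coverage its reads on the 85 bases shared with CG13842 would come to 132% of the level of CG13842. Of 85 pairs of successive genes of the 90 on an arm, 8 were less than 10 kb apart.

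CG45076, CG45078 and *fau* are annotated as separate genes on 3R but overlap, and CG45076 and CG45078 both replaced the older model CG6544. CG45076 measured 6.58, 7.34, 5.24 and 3.72 CPM at 24 hr APF and 23.4, 24.4, 23.2 and 26.3 CPM at 28 hr APF. CG45078 measured 4.78, 4.52, 5.92 and 4.08 CPM and then 16.9, 16.8, 14.8 and 19.7 CPM. *fau* measured 4.72, 4.24, 5.78 and 3.80 CPM and then 16.2, 16.2, 14.0 and 18.9 CPM, nearly the values of CG45078, with which it shares 878 exon bases. CG34106 had exactly the counts of *beat-IIIa* in every library, and in BDGP6 the exons of both symbols coincide on the same strand, so CG34106 is a second entry for the same reads. It measured 1.67, 1.55, 1.48 and 1.03 CPM and then 2.58, 3.69, 2.47 and 2.78 CPM.

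In all, 26 of the 90 genes (28.9%) share exon bases with another gene of the table, beside 47.7% of the other CG genes with at least 2 CPM, and 64 share none. In 9 genes at least 20% of the exon bases were shared. In 6 genes (CG12828, CG13028, CG13842, CG33178, CG34106 and CG45078) the estimate for a partner at even coverage was at least 50% of the level at 28 hr APF. The estimates of 122% for CG12828 and 132% for CG13842 exceed the level observed, so they are not exact for these pairs. For CG13028 that estimate came to 351 CPM from CG13023, while only 16.7 CPM were observed, so the estimate does not describe that pair, and whether coverage, strand or the handling of shared reads set the difference was not tested. CG43341 lies wholly within the antisense transcript *asRNA:CR45131*, and they went from 21.2 to 53.8 CPM and from 22.8 to 56.1 CPM. Where the counting did not use strand, the reads of such a pair cannot be told apart.

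A further view comes from the 16 genes that lie inside an intron of another gene, 17.8% of the 90 beside 12.4% of the other CG genes. Here and elsewhere, this means that a gene lies within the span of the other gene and shares no exon bases with it. Whether exons of the host lie within introns of the nested gene was not examined. CG43218 lies in an intron of *Eip78C*, a nuclear receptor gene induced by ecdysone, on the same strand. It measured 1.16, 1.47, 1.88 and 1.01 CPM and then 4.55, 5.76, 5.5 and 6.71 CPM, 4.08-fold, while *Eip78C* went from 55.2 ± 8.60 to 224 ± 51.1 CPM (SD, n = 4 each), 4.06-fold, with the highest library of each time point the same in both genes. CG32811 lies in an intron of *DAAM*, a formin that assembles actin filaments, also on the same strand, and the folds were 2.69 and 2.55. In both cases reads from the unspliced RNA of the host cannot be told apart from those of the nested gene. The same limit holds for CG43341, on the strand of its host *M7BP*, with folds of 2.54 and 1.43. Where the counting did not use strand, it also holds for nested genes on the strand opposite to the host.

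Other nested genes differed from their hosts in direction, in the size of the fold or in level. CG42741 lies in an intron of *twi*, a transcription factor of the mesoderm, on the opposite strand, and measured 28.6, 24.1, 21.8 and 21.4 CPM and then 39.6, 43.4, 57.0 and 57.9 CPM. *twi* fell in the same libraries from 48.7, 40.5, 53.4 and 45.7 CPM to 24.6, 20.1, 14.4 and 16 CPM, a log2 fold change of -1.30 (SE 0.15, adjusted p = 9.2e-05, edgeR). CG6867, in an intron of the potassium channel gene *Sh*, was at 3.54 rpkm at 28 hr APF, 23.3 times the level of its host, which was itself higher at 28 hr APF (1.75 to 3.46 CPM, log2 fold change 1.02, adjusted p = 0.0046, edgeR). CG12699 and CG43108 lie in introns of *mbl*, which encodes a splicing regulator, and had folds of 3.09 and 2.24, against 1.16 for *mbl*. Between them lie *lncRNA:CR43660* and, on the other strand, CG43272, with folds of 2.10 and 2.11. Whether these entries are separate transcripts was not tested. Of the 16 nested genes, 10 had a host that was higher at 28 hr APF, 1 a host that was lower and 5 a host that did not pass the threshold. These were 9 higher hosts of 15, since *mbl* holds 2 of the nested genes, beside 15.6% higher among all tested genes. Unspliced reads of a host can enter the count of its nested gene, and how far they did was not tested. A total of 7 nested genes were above every host in rpkm.

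**Figure D5:**
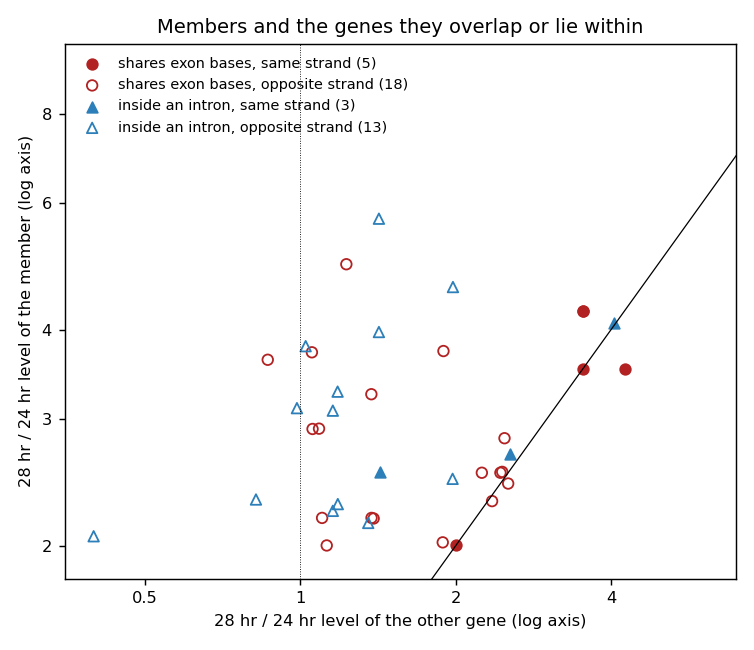
Ratio of mean CPM at 28 hr to 24 hr APF of a selected gene (y axis, log) against that of a gene it shares exon bases with (red circles) or lies inside (blue triangles), for the 39 pairs whose other gene had at least 2 CPM at 28 hr APF. Filled symbols are pairs on the same strand and open symbols pairs on opposite strands; the line marks equal ratios, on which lie CG34106 with *beat-IIIa* at 2.01 and, close by, CG43218 with *Eip78C* at 4.08 and 4.06.

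The nearest named gene on each side of each of the 90 genes could be tested, since the selection did not use it. CG genes in between were passed over and no limit was set on distance, which reached 114644 bases for *NimC4* beside CG43333. Many of these named genes are therefore not directly next to one of the 90. The named genes include noncoding entries with placeholder symbols, such as *lncRNA:CR43660* and *asRNA:CR45131*. Of 168 such genes, 118 had enough counts, and 38 of these were higher at 28 hr APF and 19 lower, or 48.3% in all, beside 32.9% of all tested genes. Their median log2 fold change was 0.13. Some of them overlap one of the 90 genes or hold it in an intron and so may hold the same reads. Without these, 24 of 97 were higher and 17 lower, or 42.3%, with a median of 0.07. *Cpr73D*, a cuticle protein gene and the nearest named gene after CG13028 at a distance of 15105 bases, had one of the largest increases. It went from 4.28 ± 0.743 to 32.1 ± 3.97 CPM (SD, n = 4 each), and its log2 fold change was 2.93 (SE 0.13, adjusted p = 7.4e-07, edgeR). *Dnaaf6*, a dynein assembly factor gene near CG4914, went from 0.016 to 0.944 CPM, with no count in 2 of the 24 hr libraries.

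Genes known to act in these hours gave the setting for the 90 genes. Of 21 tested genes of the ecdysone response, 7 were higher at 28 hr APF and 5 were lower, and the median log2 fold change was 0.12. The nuclear receptor gene *Hr4* rose from 15.7 ± 1.59 to 68.8 ± 10.8 CPM (log2 fold change 2.17, SE 0.11), whereas *ftz-f1*, a nuclear receptor gene of the prepupal response, fell from 24.9 ± 2.65 to 4.65 ± 0.374 CPM (log2 fold change -2.39, SE 0.10), and *Eip63F-1* fell from 2.21 ± 1.28 to 0.132 ± 0.0973 CPM (SD, n = 4 for each). Members of this cascade therefore moved in both directions while the 90 genes were chosen to move in one.

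Of 51 tested genes of the cuticle protein families, 17 were higher and 10 lower, with a median of 0.23. The summed level of the whole list was lower at 28 hr APF, at 3146 to 5666 CPM against 5793 to 9580 CPM in the 24 hr libraries. *Cpr76Bc*, a chitin-binding cuticle protein gene, had 0.120 ± 0.106 CPM at 24 hr APF and 19.99 ± 4.72 CPM at 28 hr APF (SD, n = 4 each). *Cpr50Ca* went from 0.519 ± 0.109 to 7.85 ± 0.771 CPM. Chitin genes were higher in 6 and lower in 5 of 25 tested, with *Gasp*, a chitin-binding matrix protein gene, falling by 1.34 on the log2 scale (SE 0.16) and *Idgf6* and *obst-A* rising by 0.90 (SE 0.10) and 0.86 (SE 0.05). Of 10 tested genes of the zona pellucida domain family, whose products shape the apical matrix, 4 were higher and 3 lower, with *dyl* at -1.11 (SE 0.10) and *mey* at 1.0 (SE 0.07). The shares called in these 4 lists were 57.1%, 52.9%, 44.0% and 70.0%, beside 32.9% of all tested genes.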

How the data were processed

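Terminalia of single male pupae (*yw;+;+*) were sequenced as poly-A libraries at 24 hr and 28 hr APF, 4 each. The reads (51 bases, 3 lanes) were placed on dm3 by the authors with tophat (2.0.13) and counted over merged FlyBase exons with bedtools. The deposited table holds 1 raw count per gene and library, without normalization. Strand, multiply aligned reads and overlapping genes are not described in the sources used here. All columns were mapped to samples by name (0 unmapped). The 415 identifiers without a symbol took 8.07% to 8.44% of the counts of a library; 6 of them met the level and fold criteria and could not be classed.

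Symbols, exon lengths, overlaps and positions came from Ensembl 115 on BDGP6, matched by FlyBase identifier with no conversion of coordinates, and synonyms from RefSeq Release 6, which held all 90 genes. These gene models can differ from those counted. CPM used the column sum. Time points were compared by the quasi-likelihood test of edgeR 4.0.16 (R 4.3.3) on the raw counts, after filterByExpr at its minimum of 10 and TMM scaling (factors 0.964 to 1.03), and p-values were adjusted over all tested genes by Benjamini-Hochberg. The fit was tested on simulated data. The SE of a log2 fold change is its absolute value over the square root of the F statistic. No 2 libraries of a time point were duplicates (chi-square per degree of freedom at least 7.78). The 90 genes and the gene lists were chosen with earlier results of these data known.

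Genes were named by rule: the 12 largest folds and the 12 highest rpkm at 28 hr APF, each given by library, and genes beside another of the 90. The rule also covered the 3 genes on each side of the fold and level thresholds, and called listed genes with the largest changes and at least 2 CPM. Of the named neighbors of the first sets, which it covered as well, only some are given. Other genes were named after their values were seen. Protein and promoter sequences were not analysed here. Alternatives covered library size, thresholds, overlaps, normalization, filter, DESeq2 1.42.0, a replicate block and each library left out.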

Additional observations from a re-analysis of the deposited data

Results flagged for a closer look

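Among the 20 genes given by library, 40 groups of 4 libraries were examined for a single library far from the other 3, and 2 were found, about as many as chance gives, since it marks about 1 group in 20. CG15020 measured 0.614 CPM in replicate 3 at 24 hr APF, from 17 reads, and between 0.140 and 0.220 CPM in the other 24 hr libraries. CG43725 measured 12.2 CPM in replicate 4 at 24 hr APF and between 18.0 and 18.8 CPM in the others. The second is the library that was lowest of its time point for 64 of the 90 genes.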

How the results depend on the processing

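The number of selected genes followed the fold criterion, with 198 CG genes and 231 named genes at 1.5-fold and 42 and 42 at 3-fold. The other alternatives moved it by less than 1.5 times: 93 with TMM-scaled and 88 with library sizes without the 10 most abundant genes, 119 at 1 CPM, 68 at 5 CPM, 64 without genes that share exon bases, and 87 to 98 with a library left out (96 to 117 for named genes). The 90 genes were also fitted with another normalization, with a replicate block and with each library left out, which gave 900 log2 fold changes. All were positive, as the choice of the genes fixes, and the lowest was 0.90. Of these, 41 moved by at least the SD of the log2 CPM of the gene over the 28 hr libraries. The rpkm of CG45076 was 11.1 at the length of its longest transcript, 7.26 otherwise. In the fit of all genes, 3121 to 3435 genes were called with a library left out, and 3998 by DESeq2. A replicate block gave 3175 called genes, with 12 ecdysone response, 11 chitin, 7 zona pellucida domain and 25 cuticle protein genes and 54 named neighbors. The numbers showed no pairing: deviations of same-numbered libraries correlated at -0.16, 0.16, -0.22 and 0.14, and 2 of 8 libraries correlated best with their own number. The count of named neighbors without those sharing bases (41 of 97) and the folds without replicate 3 at 28 hr APF were chosen after seeing the data. The 4 to 17 reads of CG15020 at 24 hr APF limit its fold.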
